A study of Mus musculus with 6 samples.

Results

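*Rps3a1* encodes ribosomal protein S3A, a component of the small (40S) subunit of the cytosolic ribosome that lies on its surface and contacts the initiation factor eIF3. The mRNAs of ribosomal proteins are abundant, and they are copied into the genome as processed pseudogenes, which lack the introns of their parent gene, often carry few differences from its mRNA and are in most cases not transcribed from a promoter of their own. *Rps3a2* and *Rps3a3* are annotated as such copies. Reads from an mRNA and from a close copy differ at few bases, so *Rps3a1*, *Rps3a2* and *Rps3a3* are described here each alone and as a sum. They are 3 of the 54446 genes that the count tables list, found by their symbols in the deposited comparison and matched to the counts by Ensembl identifier. The 3 genes were selected on their difference between the genotypes, and their log2 fold changes are therefore given as a description, with a standard error (SE) and a 95% confidence interval and with no test.

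The transcriptome was measured in the liver of 3 WT (C57BL/6J) mice and of 3 *Fmo5*-/- mice, in which both alleles of *Fmo5*, which encodes a flavin-containing monooxygenase, are disrupted and which were generated on a C57BL/6J background. All were males of 32 weeks of age, fed a standard chow diet and sampled in the morning, and 1 library of single 75-base reads was made per mouse. The mice of both genotypes were bred at 1 site and housed in adjacent cages, and whether they were littermates is not given in the sources used here. Libraries held between 44886286 and 52338675 counts on genes, and reads that mapped to more than 1 place were not counted. These were 11.8%, 13.1% and 12.6% of the reads in WT mice and 10.9%, 10.4% and 11.5% in *Fmo5*-/- mice, lower in the latter without overlap, and the part of this in the results on near-identical genes was not tested. Of all counts assigned to 1 strand, 49.9% to 50.1% lay in the orientation of the RNA, so the libraries do not keep the strand. Of the 10 hepatocyte markers, all had counts in every library, and their summed level was 118107 to 144709 CPM (counts per 1000000 counts on genes) in WT and 130591 to 148529 CPM in *Fmo5*-/- mice. The summed level of 7 Kupffer cell markers was 172 to 210 CPM in WT and 291 to 532 CPM in *Fmo5*-/- mice, and that of 6 lymphocyte markers was 12.4 to 17.2 CPM and 19.5 to 46.9 CPM. In the other 4 marker lists, of endothelial, stellate and erythroid cells and cholangiocytes, the genotypes overlapped. The part of these differences in the results below was not tested. In bulk liver RNA, fewer cells of a type and less RNA per cell cannot be told apart. *Fmo5*, the targeted gene, had normalized counts of 39808, 37405 and 30240 in WT mice and of 1071, 1102 and 1194 in *Fmo5*-/- mice, in the order of replicates, which fits the labels.

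*Rps3a1* lies on the minus strand of chromosome 3 of mm10, at chr3:86137940-86142702. It is the protein-coding gene, with 6 exons and an mRNA of 977 bases, of which bases 134 to 928 are the coding sequence and its stop codon (795 bases). *Rps3a3* lies on the plus strand of chromosome 13, at chr13:108670603-108671397, and is annotated as a processed pseudogene of 795 bases without introns. *Rps3a2*, a processed pseudogene of 792 bases, lies on the minus strand of chromosome 14 at chr14:88123017-88123808. As annotated, *Rps3a3* spans the coding sequence of *Rps3a1* with its stop codon, and *Rps3a2* spans it without the stop codon (bases 134 to 925 of the mRNA). The sequence beside the annotated copies was not examined. *Rps3a2* differed from *Rps3a1* at 4 bases and was 99.5% identical to it, and *Rps3a3* differed at 9 bases and was 98.9% identical. No gap was needed in either comparison.

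Stretches of the length of 1 read show how little separates the 3 genes. They are printed in the sense of the RNA, 5′ to 3′, from the GENCODE vM21 transcripts (GRCm38, the same assembly as mm10). Capitals in the *Rps3a1* line mark bases at which either copy differs, and capitals in the line of a copy mark the bases at which it differs from *Rps3a1*. Positions are counted from 1 at the A of the *Rps3a1* start codon, with the base of *Rps3a1* first. The first stretch, coding bases 205 to 279, lies in exon 3 of *Rps3a1* at chr3:86141314-86141388 and holds T216C, which both copies carry, and T260C, which *Rps3a3* alone carries.
Rps3a1: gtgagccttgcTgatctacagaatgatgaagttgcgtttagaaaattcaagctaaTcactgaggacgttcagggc
Rps3a2: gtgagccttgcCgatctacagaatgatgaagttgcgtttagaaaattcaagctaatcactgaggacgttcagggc
Rps3a3: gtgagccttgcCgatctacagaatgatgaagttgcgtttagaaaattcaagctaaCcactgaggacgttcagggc
The same bases lie at chr14:88123530-88123604 in *Rps3a2* and at chr13:108670807-108670881 in *Rps3a3*.

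The second stretch, coding bases 520 to 594, runs from exon 4 to exon 5 of *Rps3a1*, whose ends lie at chr3:86138562-86139083 with an intron between them. It is shown because it joins a difference shared by both copies, T534C, with a difference of *Rps3a3* alone, G582T.
Rps3a1: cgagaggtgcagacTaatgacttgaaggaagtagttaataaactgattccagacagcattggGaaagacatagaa
Rps3a2: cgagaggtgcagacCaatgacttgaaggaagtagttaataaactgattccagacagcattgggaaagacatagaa
Rps3a3: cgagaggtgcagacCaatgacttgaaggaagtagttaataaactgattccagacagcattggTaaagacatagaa
In the copies these bases are continuous in the genome, at chr14:88123215-88123289 in *Rps3a2* and at chr13:108671122-108671196 in *Rps3a3*.

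The third stretch, coding bases 630 to 704, runs from exon 5 to exon 6 of *Rps3a1* (ends at chr3:86138080-86138526) and is the one in which the copies differ from *Rps3a1* at different bases. *Rps3a2* carries A645T and T668C, and *Rps3a3* carries A660G.
Rps3a1: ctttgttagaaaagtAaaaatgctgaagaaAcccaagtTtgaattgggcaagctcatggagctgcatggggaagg
Rps3a2: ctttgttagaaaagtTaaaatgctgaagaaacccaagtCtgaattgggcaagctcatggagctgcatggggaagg
Rps3a3: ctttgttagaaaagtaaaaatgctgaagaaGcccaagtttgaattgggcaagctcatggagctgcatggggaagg
These bases lie at chr14:88123105-88123179 in *Rps3a2* and at chr13:108671232-108671306 in *Rps3a3*.

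The remaining differences of *Rps3a3* were C363T and A427T in exon 4 and C762T and G792A in exon 6. T216C and T534C were the 2 differences that the copies share, and *Rps3a2* and *Rps3a3* differed from each other at 9 bases. Of the 4 differences of *Rps3a2*, 1 changes an amino acid of the *Rps3a1* reading frame (T668C), and of the 9 differences of *Rps3a3*, 2 do (T260C and A427T). The reading frame of *Rps3a3* runs without a stop to codon 265 of 265, which is the stop codon of *Rps3a1*, and that of *Rps3a2* has no stop in its 264 codons. An open frame in the reference sequence does not show that a protein is made.

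A read of 75 bases cannot be placed on 1 gene where the genes are identical over its whole length. The *Rps3a1* mRNA holds 903 windows of 75 bases, and 544 of them (60.2%) were identical to a stretch of another annotated gene. A further 177 (19.6%) differed from the nearest other gene at 1 base, 0 differed at 2 bases, and 182 (20.2%), which lie towards the ends of the mRNA, differed at more than 2. Against *Rps3a3* alone, 231 windows of *Rps3a1* (25.6%) were identical and 417 (46.2%) differed at 1 base, and against *Rps3a2* alone 470 (52.0%) were identical. Seen from the copies, 86.4% of the 718 windows of *Rps3a2* and 45.4% of the 721 windows of *Rps3a3* were identical to another annotated gene, and a further 54.1% of those of *Rps3a3* had 1 difference from the nearest gene. Windows of *Rps3a1* that cross an exon junction were identical to another gene in 290 of 370 cases (78.4%), and windows within 1 exon in 254 of 533 (47.7%). A read that crosses a junction of *Rps3a1* has to be split by the mapping, while the same bases lie in 1 piece in a copy. Transcript sequences were compared here, and the rest of the genome was not searched.

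**Figure D1:**
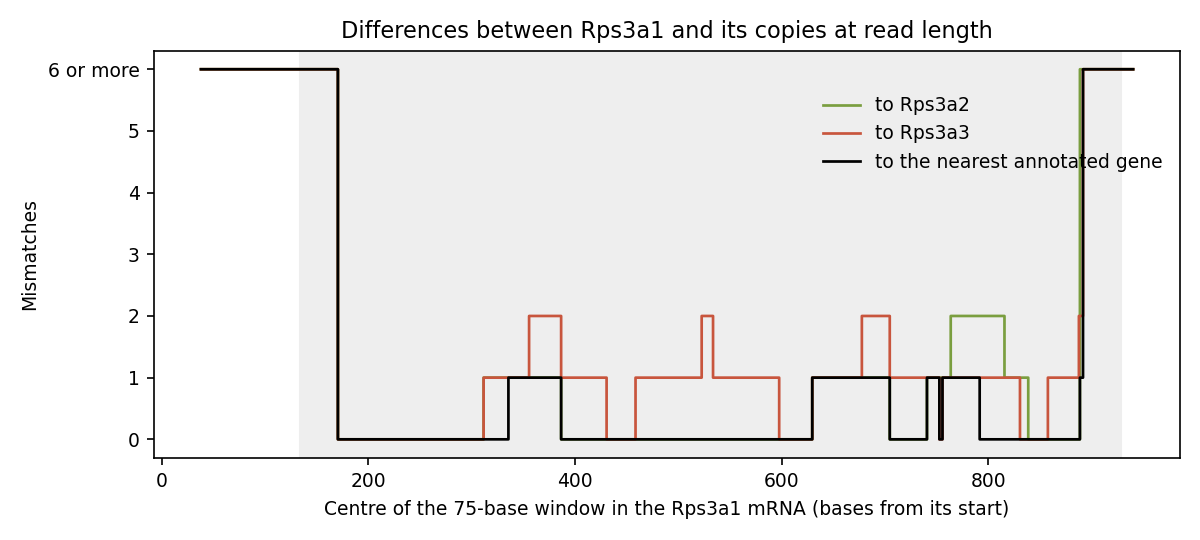
Mismatches between each 75-base window of the *Rps3a1* mRNA (x axis, position of the centre of the window in bases) and *Rps3a2*, *Rps3a3* and the nearest annotated gene (y axis, values of 6 or more drawn at 6). The shaded part is the coding sequence; over most of it the nearest gene has 0 or 1 mismatch, and the windows with more lie at the ends of the mRNA.

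Of the 3 genes, *Rps3a1* held nearly all counts in WT mice. *Rps3a1* had 8198, 8247 and 9401 counts in the 3 WT mice and 4797, 5108 and 4587 counts in the 3 *Fmo5*-/- mice. The genotypes did not overlap, and the highest *Fmo5*-/- mouse lay well below the lowest WT mouse. After scaling for library size, normalized counts of *Rps3a1* were 9166 ± 466 (SD, n = 3) in WT and 4553 ± 118 (SD, n = 3) in *Fmo5*-/- mice. The log2 fold change, *Fmo5*-/- over WT, was -1.01 (SE 0.080, 95% interval -1.19 to -0.83), and the level was 2.01-fold higher in WT. The log2 fold change was between -1.04 and -0.97 when each library was left out in turn.

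*Rps3a3* moved the other way. It had 24, 19 and 30 counts in WT mice and 1923, 2404 and 2309 counts in *Fmo5*-/- mice. Every *Fmo5*-/- mouse thus had many reads assigned to this pseudogene, and every WT mouse had few. Normalized counts of *Rps3a3* were 25.8 ± 4.75 (SD, n = 3) in WT and 2088 ± 259 (SD, n = 3) in *Fmo5*-/- mice, a log2 fold change of 6.33 (SE 0.16, 95% interval 5.97 to 6.69), or 80.4-fold. Among the 8500 tested genes with a positive log2 fold change, this was the third largest. The gene was chosen on this difference, so nothing is read from the rank.

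*Rps3a2*, the closer of the 2 copies in sequence, was low in both genotypes. It had 37, 26 and 59 counts in WT mice and 1, 3 and 5 counts in *Fmo5*-/- mice. The genotypes did not overlap, but the values in *Fmo5*-/- mice lie at the limit of counting. Normalized counts of *Rps3a2* were 42.8 ± 16.0 (SD, n = 3) in WT and 2.86 ± 1.99 (SD, n = 3) in *Fmo5*-/- mice. The fitted log2 fold change of *Rps3a2* was -3.86 (SE 0.50, 95% interval -4.99 to -2.74). The summed counts, 122 in WT and 9 in *Fmo5*-/- mice, gave a ratio of 14.2 with an exact interval of 7.23 to 31.8 for counting error only, after allowing for the library sizes.

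The sum of the 3 genes differed less than its parts. It was 8259, 8292 and 9490 counts in WT mice and 6721, 7515 and 6901 counts in *Fmo5*-/- mice, so that the genotypes stayed apart. Normalized counts of the sum were 9234 ± 479 (SD, n = 3) in WT and 6645 ± 338 (SD, n = 3) in *Fmo5*-/- mice, a log2 fold change of -0.47 (SE 0.084, 95% interval -0.67 to -0.28), or 1.39-fold higher in WT. The counts that *Rps3a3* had in *Fmo5*-/- mice were thus fewer than those by which *Rps3a1* was lower. With the 9 other annotated copies included, the sum had a log2 fold change of -0.48.

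**Figure D2:**
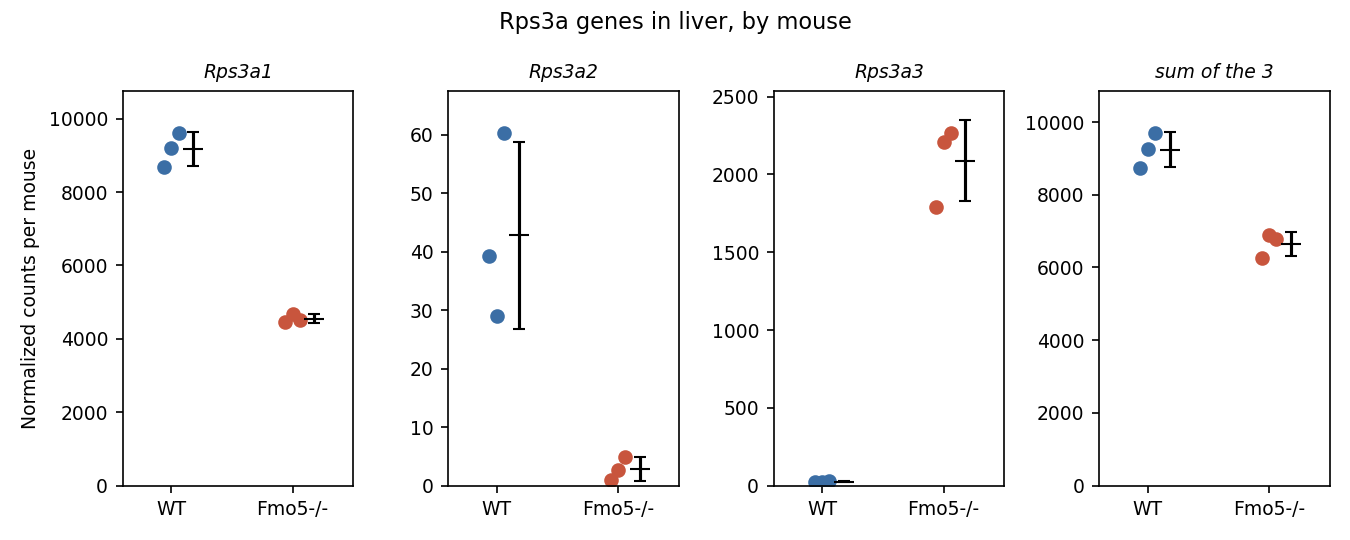
Normalized counts (TMM-scaled, y axis of each panel from 0 on its own linear scale) of *Rps3a1*, *Rps3a2*, *Rps3a3* and their sum in the liver of 3 WT (blue) and 3 *Fmo5*-/- (red) mice. Points are mice, and black marks are the mean and SD; *Rps3a1*, *Rps3a2* and the sum are lower in *Fmo5*-/- mice, *Rps3a3* is higher, and the genotypes do not overlap in any panel.

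As background, edgeR's quasi-likelihood test called 229 of 16734 tested genes (1.37%) at an adjusted p under 0.05. That the 3 genes are among them was fixed by their choice on this contrast and is no test of them. Of all tested genes, 0.693% were called lower and 0.675% higher in *Fmo5*-/- mice, and DESeq2, run with its own filter, called 8.96% of 15571 genes in either direction. In 27.4% of all tested genes the genotypes did not overlap. Nothing is read from these shares for the 3 genes.

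The share of each gene in the sum is free of the scaling between libraries. *Rps3a1* held 99.3%, 99.5% and 99.1% of the counts of the 3 genes in WT mice, and 71.4%, 68.0% and 66.5% in *Fmo5*-/- mice. The exact (Clopper-Pearson) 95% intervals of the single mice lay within 98.8% to 99.6% in WT and within 65.3% to 72.5% in *Fmo5*-/- mice, and they cover counting error only. The means were 99.3% ± 0.198 (SD, n = 3) and 68.6% ± 2.51 (SD, n = 3). The share of *Rps3a3* was 0.279% ± 0.0447 (SD, n = 3) in WT and 31.4% ± 2.49 (SD, n = 3) in *Fmo5*-/- mice. *Rps3a2* had less than 1% of the sum in every mouse, with 0.461% ± 0.154 (SD, n = 3) in WT and 0.0424% ± 0.0289 (SD, n = 3) in *Fmo5*-/- mice.

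The strand shares below come from the same reads as the counts on which the genes were chosen. They and their permutation tests are thus no separate support for the difference between the genotypes. Over a whole library that does not keep the strand, reads in both orientations are expected in equal numbers, and they were. Reads of *Rps3a1* and its copies are counted only where they map to 1 place. An equal split need not hold for such genes, and the part of this in the strand shares was not tested. Reads of *Fmo5* followed this, with 49.0% ± 0.297 (SD, n = 3) in the orientation of the RNA in WT and 48.7% ± 0.827 (SD, n = 3) in *Fmo5*-/- mice. Reads assigned to *Rps3a1* did not. In WT mice 65.1%, 65.9% and 63.4% of them lay in the orientation of the RNA, and in *Fmo5*-/- mice 76.3%, 72.9% and 73.5%. Both genotypes lay above an equal split and the *Fmo5*-/- mice lay higher, without overlap. The means for *Rps3a1* were 64.8% ± 1.31 (SD, n = 3) and 74.2% ± 1.81 (SD, n = 3), a difference of 9.43 percentage points with a two-sided exact permutation p of 0.1, the smallest that 3 against 3 mice allow.

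Reads assigned to *Rps3a3* in *Fmo5*-/- mice leaned to the opposite strand. There 38.8%, 43.8% and 42.8% of them lay in the orientation of the RNA, with exact 95% intervals within 36.7% to 45.9%. In WT mice, with 19 to 30 counts each, the shares were 75%, 52.6% and 70.0%, with intervals from 28.9% to 90.2%. The means for *Rps3a3* were 41.8% ± 2.63 (SD, n = 3) in *Fmo5*-/- and 65.9% ± 11.7 (SD, n = 3) in WT mice, with an exact permutation p of 0.1 (two-sided). In counts, *Fmo5*-/- mice had 747, 1054 and 988 reads of *Rps3a3* in the orientation of the RNA and 1176, 1350 and 1321 in the opposite orientation. *Rps3a1* had 3660, 3724 and 3373 reads in the orientation of the RNA and 1137, 1385 and 1214 in the opposite one in the same mice, so in that orientation the 2 genes had similar counts.

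When the 3 genes were summed, the strand share no longer separated the genotypes. It was 65.2%, 65.9% and 63.5% in WT and 65.6%, 63.6% and 63.2% in *Fmo5*-/- mice, and the ranges overlapped. The means of the sum were 64.9% ± 1.24 (SD, n = 3) and 64.1% ± 1.27 (SD, n = 3), which differed by less than 1 SD (two-sided exact permutation p = 0.6). The fold changes of *Rps3a1* and *Rps3a3* depended on the strand, and that of the sum moved by less than its SD. For reads in the orientation of the RNA the log2 fold change was -0.79 for *Rps3a1*, 5.67 for *Rps3a3* and -0.47 for the sum. For reads in the opposite orientation it was -1.45 for *Rps3a1*, 7.14 for *Rps3a3* and -0.44 for the sum. The share of *Rps3a1* in the sum in *Fmo5*-/- mice was 79.4% in the first case and 49.2% in the second. For *Rps3a2*, with at most 59 counts in a WT library and 1, 3 and 5 counts in *Fmo5*-/- mice, there were too few reads to compare strand shares.

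**Figure D3:**
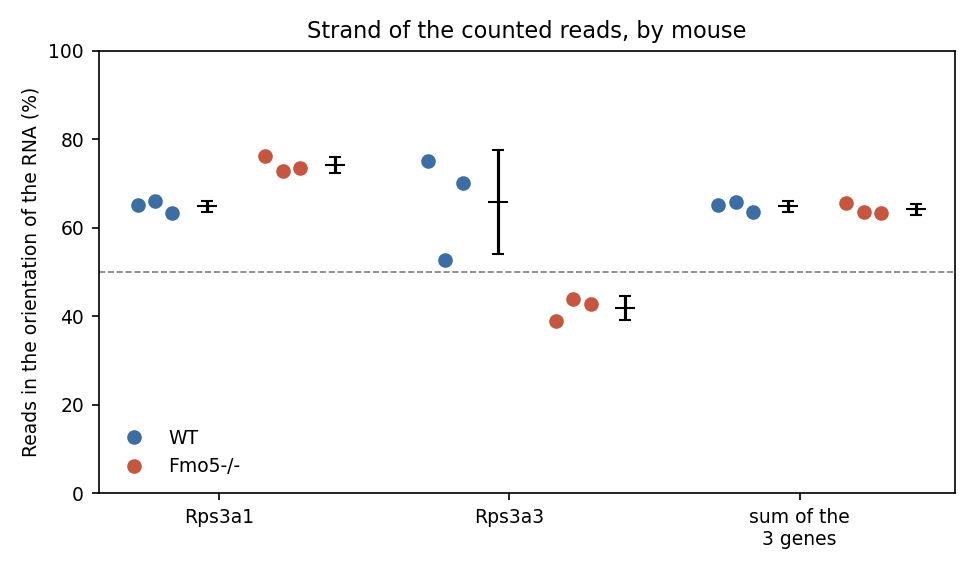
Percent of reads in the orientation of the RNA (y axis) among those assigned to *Rps3a1*, to *Rps3a3* and to the sum of the 3 genes, in 3 WT (blue) and 3 *Fmo5*-/- (red) mice. Points are mice, black marks are the mean and SD, and the dashed line is an equal split; *Rps3a1* and *Rps3a3* lie apart from it in opposite directions in *Fmo5*-/- mice, while the sum is alike in both genotypes.

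A search of all annotated transcripts with the *Rps3a1* mRNA found 11 processed pseudogenes, *Rps3a2*, *Rps3a3* and 9 more, which were looked for after the values of the 3 genes had been seen. The 9 had 293 counts in WT and 155 counts in *Fmo5*-/- mice in all, few beside those of *Rps3a1*. Enough counts for a test were present in 2 of them. *Gm8960*, on chromosome 10 (chr10:115599026-115600328, minus strand, 96.1% identical to *Rps3a1*), had 56, 68 and 70 counts in WT and 4, 4 and 1 counts in *Fmo5*-/- mice. It was lower in *Fmo5*-/- mice without overlap, with a log2 fold change of -4.55 (SE 0.37, edgeR adjusted p = 0.000848). Its summed counts, 194 and 9, gave a WT to *Fmo5*-/- ratio of 22.6 (exact interval 11.6 to 50.1, counting error only). *Gm5586*, on chromosome 7 (chr7:16719116-16719910, minus strand, 98.5% identical), had 20, 13 and 26 counts in WT and 37, 38 and 30 counts in *Fmo5*-/- mice, again without overlap, with a log2 fold change of 0.66 (SE 0.28) that did not pass the test (edgeR adjusted p = 0.219). The other 7 had at most 10 counts in any library. Among the 4 copies with enough counts, *Rps3a2* and *Gm8960* thus had fewer reads in *Fmo5*-/- mice and *Rps3a3* and *Gm5586* had more, without overlap in any of the 4, beside 27.4% of all tested genes. *Rps3a2* and *Rps3a3* were chosen for their difference, so nothing is read from this count.

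An intron of *Rps3a1* holds *Snord73a*, a box C/D small nucleolar RNA at chr3:86138791-86138858 of the class that guides methylation of ribosomal RNA. It had 3, 2 and 3 counts in WT and 6, 7 and 11 counts in *Fmo5*-/- mice, too few for the test. *Snord73b* was not matched to the count tables.

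The level of *Rps3a1* among the mRNAs of the small subunit was compared per length, as RPKM over the merged exons of each gene. *Rps3a1* had 192 ± 9.77 RPKM (SD, n = 3) in WT, rank 3 of 33 genes after *Rps15* (318 ± 35.3) and *Rps2* (207 ± 8.92). The next lower gene was *Rps21*, at 177 ± 22 RPKM, and its distance from *Rps3a1* was less than its SD. In *Fmo5*-/- mice *Rps3a1* had 95.4 ± 2.48 RPKM and rank 10, just below *Rps14* (97.1 ± 5.81 RPKM), from which it differed by less than the SD of *Rps14*. Merged exons overstate the length of genes with long alternative transcripts, so ranks between genes are approximate. The RPKM of *Rps3a1* also rest on its full length, though 60.2% of its windows were identical to another annotated gene. They leave out the reads assigned to *Rps3a3* in *Fmo5*-/- mice, so the change of rank is one of counted reads.

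The other proteins of the small subunit are made in equal numbers with S3A, and their mRNAs are known to be regulated together through a 5′ terminal oligopyrimidine (TOP) motif. Over all tested genes, edgeR called 1.37%, 21.8% had an unadjusted p under 0.05 in its test, and in 27.4% the genotypes did not overlap. DESeq2 called 8.96% of the 15571 genes left by its own filter. The counts of each list of genes stand beside these shares. At 1.37%, 0 calls by edgeR in lists of this length lie near the share over all genes. Among the other 32 genes of the small subunit, edgeR called 0 of 32 in either direction, 0 had an unadjusted p under 0.05, and DESeq2 called 0. Their log2 fold changes ran from -0.21 in *Rps27* to 0.24 in *Rps10*, with a median of -0.06 beside 0.01 over all genes tested. *Rps27* had 5900 ± 423 normalized counts (SD, n = 3) in WT and 5097 ± 788 (SD, n = 3) in *Fmo5*-/- mice, and the genotypes overlapped. *Rps10*, with 104 ± 22 and 123 ± 11.7 normalized counts, was the least abundant of the list and also overlapped. Between these extremes lay *Rps2* (-0.03), *Rps3* (-0.06), *Rpsa* (-0.10), *Rps15* (-0.05), *Rps12* (-0.01), *Rps27a* (-0.12), *Rps16* (0.04) and *Fau* (0.02). In 29 of the 32 genes the log2 fold change was below 0 and in 3 above 0, and the genotypes separated in 0 of the 32.

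Set against the other 32 genes within the same library, *Rps3a1* had 3.84, 4.20 and 3.73 counts per 100 counts of those genes in WT and 2.17, 2.04 and 1.88 in *Fmo5*-/- mice. The means were 3.92 ± 0.246 (SD, n = 3) and 2.03 ± 0.144 (SD, n = 3). For the sum of the 3 genes the values were 3.86, 4.22 and 3.77 in WT and 3.04, 3 and 2.83 in *Fmo5*-/- mice. Its means were 3.95 ± 0.240 (SD, n = 3) and 2.96 ± 0.110 (SD, n = 3), a ratio of 0.748. In these counts, which leave out reads that mapped to more than 1 place, the sum was thus lower relative to its subunit partners in every *Fmo5*-/- mouse. The same held for *Rps3a1*.

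In the large (60S) subunit edgeR called 0 of 47 genes, with 2 at an unadjusted p under 0.05 and 0 called by DESeq2, and the genotypes did not overlap in 3. These stand beside 1.37%, 21.8%, 8.96% and 27.4% of all genes, in the same order. The median log2 fold change was -0.05, and the values ran from -0.27 in *Rpl23a* to 0.20 in *Rpl24*. *Rpl23a* had 2712 ± 247 normalized counts (SD, n = 3) in WT and 2251 ± 195 (SD, n = 3) in *Fmo5*-/- mice and did not pass the test (edgeR adjusted p = 0.153). Of 13 other mRNAs with a TOP motif, which encode elongation factors and further proteins of translation, edgeR called 0, with 1 at an unadjusted p under 0.05 and 0 by DESeq2, the genotypes did not overlap in 3, and their median was -0.12. They ran from *Eif3e* (-0.24), a subunit of eIF3, to *Hnrnpa1* (0.09), an RNA-binding protein. Of 26 factors that assemble the small subunit, edgeR called 0, with 2 at an unadjusted p under 0.05, 1 by DESeq2 and 6 without overlap, around a median of -0.01. *Pno1*, which binds the precursor of the small subunit, was the lowest at -0.32 (edgeR adjusted p = 0.0739), and *Rrp7a* was the highest at 0.16.

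The last list holds the factors that meet the small subunit at initiation, and it shares *Eif3e*, *Eif3f* and *Eif3h* with the list of TOP mRNAs. Of 20 genes of eIF3 and of the 43S complex edgeR called 0, with 9 at an unadjusted p under 0.05, 3 by DESeq2 and 9 without overlap. The shares over all genes were 1.37%, 21.8%, 8.96% and 27.4%. Their median log2 fold change was -0.15, and 19 of 20 were below 0. They ran from *Eif2s3x* (-0.40), a subunit of the factor that brings the initiator tRNA, to *Eif3d* (0.03), the eIF3 subunit that can bind the cap. *Eif2s3x* had 635 ± 96.8 normalized counts (SD, n = 3) in WT and 480 ± 89.6 (SD, n = 3) in *Fmo5*-/- mice and overlapped between the genotypes (edgeR adjusted p = 0.187).

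**Figure D4:**
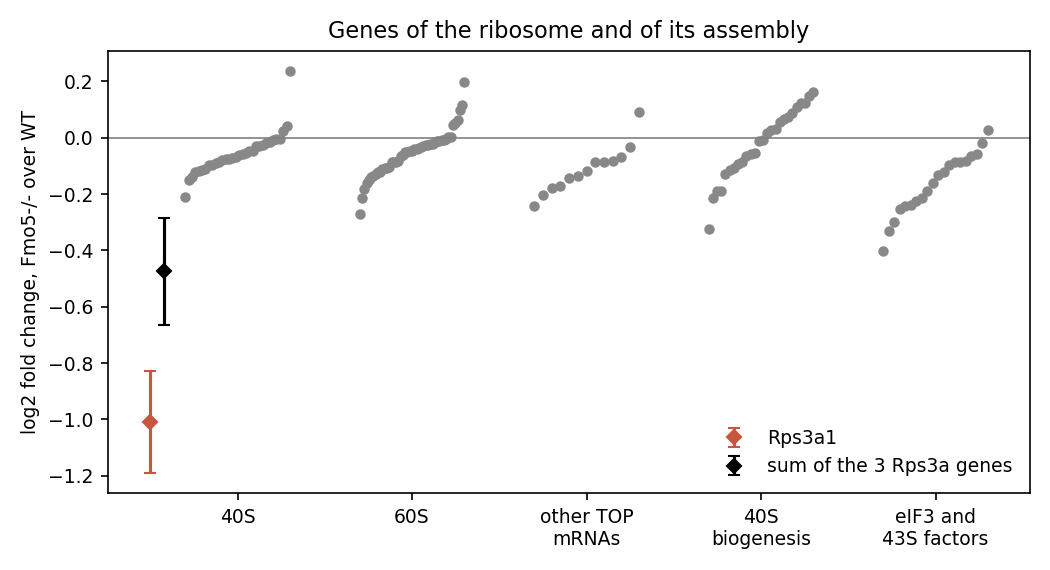
Log2 fold change, *Fmo5*-/- over WT (y axis), of the genes of 5 lists, each point 1 gene in rising order within its list. The diamonds are *Rps3a1* (red) and the sum of the 3 *Rps3a* genes (black) with 95% intervals; *Rps3a1* lies at -1.01 and the sum at -0.47, while the other genes of the small subunit lie between -0.21 and 0.24.

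*Rps3a1* lies on the same chromosome as *Fmo5*, 11.5 Mb away, and its neighbours were compared for that reason. Within 2 Mb of its start 32 other genes were tested, and edgeR called 1 (3.12%, beside 1.37% of all genes). DESeq2 called 4 in this window, beside 8.96% of the genes left by its own filter. Over the alternatives run, the count was between 0 and 7, and the number of genes tested was not the same in all of them. In 9 of the 32 the genotypes did not overlap, beside 27.4% of all genes. The nearest tested gene on one side, *Sh3d19*, an adaptor protein with SH3 domains, had 4670 ± 295 normalized counts (SD, n = 3) in WT and 4980 ± 552 (SD, n = 3) in *Fmo5*-/- mice, and the genotypes overlapped. On the other side lies *Lrba*, a protein of vesicle trafficking. It had 1736 ± 68.4 normalized counts (SD, n = 3) in WT and 1464 ± 133 (SD, n = 3) in *Fmo5*-/- mice, without overlap. Its log2 fold change of -0.25 (SE 0.088) did not pass the test (edgeR adjusted p = 0.153).

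The gene that edgeR called within 2 Mb was *Cd1d2*, at chr3:86986551-86989780, a relative of the lipid-presenting molecule CD1d. The annotation lists it as a polymorphic pseudogene, which is a gene with a working copy in some strains and a defective one in others. *Cd1d2* had 10, 4 and 5 counts in WT and 912, 984 and 907 counts in *Fmo5*-/- mice. Nearly all of its reads thus came from *Fmo5*-/- mice. Normalized counts of *Cd1d2* were 6.72 ± 3.37 (SD, n = 3) and 881 ± 28.0 (SD, n = 3), a log2 fold change of 7 (SE 0.21, edgeR adjusted p = 3.43e-07). Its start lies 0.849 Mb from that of *Rps3a1*. *Rps3a2*, *Rps3a3* and *Gm8960* lie on other chromosomes.

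**Figure D5:**
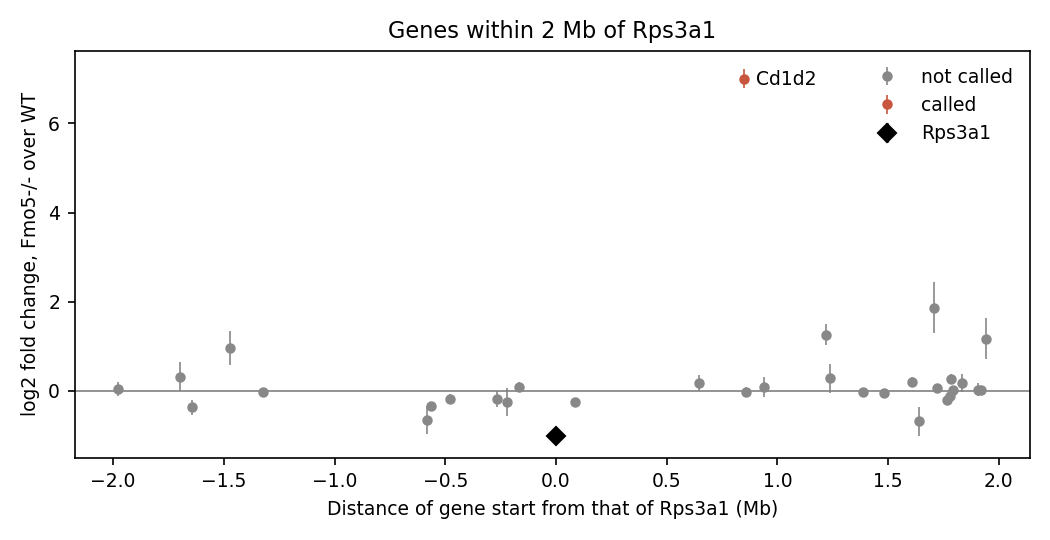
Log2 fold change, *Fmo5*-/- over WT, with SE (y axis) of the 32 tested genes within 2 Mb of *Rps3a1* against the distance of their start from that of *Rps3a1* (x axis, in Mb). The diamond is *Rps3a1* at -1.01, and the 1 gene called by edgeR (red) is *Cd1d2* at 7.

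The genes whose profile over the 6 libraries was most like that of *Rps3a1* were found by the root mean square distance between mean-centred log2 CPM. They were *Ide*, the insulin-degrading enzyme (distance 0.080), *Adgrv1*, an adhesion receptor (0.108), *Gm10284* (0.116), *Kitl*, the ligand of the receptor KIT (0.128), and *Rnf167*, a ubiquitin ligase (0.137). Of all tested genes, 1% lay within 0.284 and 50% within 0.542. *Ide*, on chromosome 19, had 7646 ± 854 normalized counts (SD, n = 3) in WT and 3849 ± 210 (SD, n = 3) in *Fmo5*-/- mice, close to *Rps3a1* in level and in log2 fold change (-0.99). The log2 fold changes of the other four were -0.88 in *Adgrv1*, -1.10 in *Gm10284*, -0.93 in *Kitl* and -0.94 in *Rnf167*. No gene of the ribosome was among them. Nothing is read from this, since few genes are listed and *Rps3a1* was chosen on the difference that shapes its profile.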

How the data were processed

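RNA was extracted from frozen liver and sequenced as single 75-base reads. Mapping to mm10 was done by the authors with STAR 2.6.0c. STAR also gave the deposited raw counts per gene, for both strands and for each strand alone, from reads that map to 1 place. The authors' deposited signal values are those counts over a size factor from DESeq2, and the ratio of counts to signal was checked to be constant within each library (100% of well-counted genes within 0.1%). The fold changes and p-values of the authors' own comparison were not used. Positions are from GENCODE vM21, which holds 54409 of 54446 identifiers.

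Counts of both strands were filtered (filterByExpr, minimum count 10), scaled by TMM and fitted with the robust quasi-likelihood model of edgeR 4.0.16 in R 4.3.3, with Benjamini-Hochberg adjustment over 16734 genes. A gene was called at an adjusted p under 0.05. Normalized counts are TMM-scaled to the mean library size, and CPM are counts per 1000000 counts on genes. The sum was fitted as 1 gene in place of the 3. Copies were searched with blastn 2.17.0 (at least 300 aligned bases). The members and gene lists were chosen with earlier results of these data known; *Enp1* and *Snord73b* were not matched. Genes named are the 3 members, annotated copies, *Fmo5*, genes of the 40S list, and the called, lowest and highest genes of the other lists. Also named are genes shared between lists, *Snord73a*, the nearest and the called genes within 2 Mb, and the 5 nearest profiles. The 9 further copies were found by sequence and added. Each mouse gave 1 library. Total depth was 44886286 to 52338675 counts on genes, intervals of log2 fold changes include the spread between mice, and exact intervals of shares and of ratios of counts cover counting error only.

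In simulated data with 16734 genes drawn for this comparison, edgeR recovered 20.9%, 64.2% and 93.9% of genes changed by log2 0.5, 1 and 2. It made 7 false calls of 126. For genes with a mean of 500 or more it recovered 30.3%, 100% and 100%. The spread between simulated libraries was set by the mean count of a gene alone, so recovery in real data may be lower. Alternatives were DESeq2 1.42.0, RLE factors, no filter, reads of 1 strand, a mean of 500 or more, windows of 1 and 5 Mb, and leaving out each library. The other strand and the sum over all copies were added after seeing the data.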

Additional observations from a re-analysis of the deposited data

How the results depend on the processing

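The log2 fold changes of *Rps3a1*, *Rps3a2*, *Rps3a3* and the sum kept their direction under every alternative run. No paired analysis was possible because the libraries are from different mice that no label pairs, and replicates are numbered in accession order only. Reads in the orientation opposite to the RNA, which had slightly more counts over all genes and libraries but fewer for *Rps3a1*, gave -1.45 for *Rps3a1*, 7.14 for *Rps3a3* and a share of *Rps3a1* in the sum of 49.2% in *Fmo5*-/- mice, and *Rps3a2* then failed the filter. Reads of the other strand gave -0.79, 5.67 and 79.4%. The cause was not tested. Leaving out each library gave -1.04 to -0.97 for *Rps3a1*, -4.45 (without *Fmo5*-/- replicate 3) to -3.46 for *Rps3a2*, 6.21 to 6.48 for *Rps3a3* and -0.51 to -0.43 for the sum. The count of called genes depended on the processing: 229 as reported, 1395 by DESeq2 (fitted to 34200 genes with its own filter in place of filterByExpr, so that tool and filter both changed), 1989 without a filter, 126 with a mean of 500 or more, and 31 (without *Fmo5*-/- replicate 1) to 763 (without *Fmo5*-/- replicate 3) when a library was left out, with 62, 82 and 148 without WT replicates 1, 2 and 3 and 106 without *Fmo5*-/- replicate 2. Genes called within 2 Mb of *Rps3a1* were 1 as reported, 4 by DESeq2, 7 without a filter and 0 with a mean of 500 or more. They were 1 to 3 when a library was left out (3 without *Fmo5*-/- replicate 3). The numbers tested in the window under these alternatives were not determined, so these counts have no share. Within 5 Mb edgeR called 5 of 142 tested genes (3.52%, beside 1.37% of all genes), all higher in *Fmo5*-/- mice. Calls in the 40S and 60S lists stayed at 0 under all alternatives run. Reads mapped to more than 1 place were not counted, so levels of genes with near-identical copies are incomplete, and *Rps3a2* in *Fmo5*-/- mice rests on 9 counts in all.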
